A study of Mus musculus with 20 samples.

Results

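A set of 10 genes, of the 21154 named on the arrays, was listed as resident macrophage genes and is followed here over 5 tissues and 4 diets. Being on the list does not make a gene exclusive to resident macrophages. They were taken as a list of names, Marco, Timd4, Vsig4, Clec4f, Cd163, Mrc1, Lyve1, Folr2, Cd5l and Adgre1, and each was represented by its brightest probe. All 10 were found on the arrays, 9 of them through a single probe and Adgre1 through 2. The choice did not use measured values of these samples, but it was made with earlier results of these data known.

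Many resident macrophages, though not all, settle in a tissue before or soon after birth and then renew themselves there with little input from blood monocytes. They clear dying cells, bacteria and worn red cells, and the receptors they use for this are also the genes that identify them. Kupffer cells, the macrophages of the liver sinusoids, are the classic example, and fat, gut and lymph nodes hold resident populations of their own. In obesity, macrophages that gather around dying fat cells carry a different set of genes, called lipid-associated, which includes Trem2 and Gpnmb.

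Gene expression was measured in 2 fat depots (mesenteric white and brown), liver, ileum and colon of male C57BL/6J mice, which were 5 weeks old when feeding began and were fed for 13 weeks. The control diet (CD) held 10% of its calories as fat and the high fat diet (HFD) 60%. In the supplemented groups, HFD also contained porphyran (HFD+PP) or an extract of nori (HFD+Ex), each at 2% w/w. Porphyran is the main sulfated galactan in the cell wall of nori seaweed. A group was 7 mice, whose tissues were pooled, so that each of the 20 one-colour arrays stands for 1 pool.

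With 1 array per tissue and diet, no difference between diets has a replicate check or a p-value. A level is given as log2 of the processed signal relative to the 75th percentile of its array. A level of 0 is therefore the 75th percentile itself, and 1 unit is a 2-fold difference. "Rose" and "fell" are used for differences of at least 2-fold where at least 1 of the compared arrays had the probe well above background. Where the dimmer array was not well above background, the difference is a bound against the floor of that array and is written "at least". That floor is the lowest level of any probe well above background there, or the probe's own level if higher. A bound holds for the main processing only and can shrink under another background correction. Spots printed several times on an array gave a technical standard deviation of 0.0796 to 0.108 log2 for a difference, which leaves out the animals. In pooled tissue RNA, fewer cells of a type and less RNA per cell cannot be told apart.

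Between 50.7% and 67.9% of spots were well above background on each array. The tissue labels were borne out by their defining genes: the summed level of hepatocyte genes was 6812 to 7296 times the 75th percentile in liver and at most 113 elsewhere, that of brown fat genes 3090 to 3805 in brown fat and at most 42.3 elsewhere, and that of ileum genes 1061 to 1310 in ileum and at most 74.3 elsewhere. Fat cell genes summed to 803 to 1159 in mesenteric fat and 868 to 1056 in brown fat, against at most 54.5 in the other tissues. Colon genes summed to 317 to 383 in colon and 213 to 292 in ileum. The arrays lay on 4 slides. In mesenteric fat the CD and HFD arrays shared slide 1 and both supplement arrays slide 2, and in brown fat the HFD+Ex array lay on another slide than the other 3. Slide and diet therefore cannot be told apart in mesenteric fat when a supplement is compared with HFD or CD, nor in brown fat when HFD+Ex is compared with any other diet.

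Promoter sequences are shown for 4 members, chosen as 2 pairs that moved in opposite directions in mesenteric fat: Marco and Timd4, which fell on the high fat diet, and Vsig4 and Folr2, which rose. RefSeq windows of assembly GRCm38.p6 were found for 8 of the 10 members, while Lyve1 and Adgre1 had none in the table used here. Each line gives the 250 bases before the start site, 5′ to 3′ on the strand of the gene. Capitals mark 3 motifs searched on both strands. GGAAGT is a purine-rich core of the kind bound by ETS family factors such as PU.1, which macrophages depend on. A second core of that kind that was searched is GAGGAA. The third is the ETS-IRF composite, made of the ETS letters GGAA and, after any 2 bases, the half-site of interferon regulatory factors, GAAA. The first core can overlap the composite, and all 3 motifs hold the same short ETS letters.
Marco, chr1:120505025-120505274, minus strand: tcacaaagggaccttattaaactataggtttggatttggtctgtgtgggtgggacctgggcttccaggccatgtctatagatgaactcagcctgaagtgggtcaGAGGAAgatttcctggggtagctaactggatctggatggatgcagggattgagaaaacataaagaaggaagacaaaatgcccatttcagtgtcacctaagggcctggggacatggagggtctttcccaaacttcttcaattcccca
Timd4, chr11:46810549-46810798, plus strand: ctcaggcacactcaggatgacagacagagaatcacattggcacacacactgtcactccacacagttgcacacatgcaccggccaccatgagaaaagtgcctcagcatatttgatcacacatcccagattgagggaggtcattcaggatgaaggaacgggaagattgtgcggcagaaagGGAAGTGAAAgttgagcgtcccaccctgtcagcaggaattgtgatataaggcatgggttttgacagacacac
Vsig4, chrX:96293439-96293688, minus strand: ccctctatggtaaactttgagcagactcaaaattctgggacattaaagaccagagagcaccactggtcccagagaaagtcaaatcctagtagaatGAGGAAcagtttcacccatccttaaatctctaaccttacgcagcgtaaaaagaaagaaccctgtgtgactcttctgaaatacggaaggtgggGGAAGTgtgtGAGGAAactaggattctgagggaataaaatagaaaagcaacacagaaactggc
Folr2, chr7:101857191-101857440, minus strand, the first of 2 windows of this gene: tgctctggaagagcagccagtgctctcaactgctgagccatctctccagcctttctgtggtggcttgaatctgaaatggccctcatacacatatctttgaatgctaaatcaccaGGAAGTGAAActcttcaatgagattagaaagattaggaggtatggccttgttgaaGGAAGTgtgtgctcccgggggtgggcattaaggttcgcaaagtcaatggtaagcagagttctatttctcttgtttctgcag
GGAAGT was present in the windows of 5 of 8 members (Timd4, Vsig4, Clec4f, Mrc1 and Folr2) and in 19.7% of all 32851 windows of this length. GAGGAA was present in 4 of 8 (Marco, Vsig4, Mrc1 and Cd5l) and in 23.3% of all windows. The composite was present in Timd4 and Folr2 and in 2.30% of all windows, beginning 72 bases before the start of Timd4 and 136 bases before that of Folr2. Both members with the composite also appear on opposite sides of the mesenteric fat pattern described below. A match of letters is a description of the sequence and shows no binding.

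The comparison of tissues asked where each gene was strongest. The 4 diet pools, whose mice gave all 5 tissues, served as the replicates of a tissue (n = 4), with the pool as a block. They differ in diet, so the spread also holds any diet effect, and the p-values speak only of the spread among these 4 pools. The test fitted a single spread per gene over all 5 tissues, so a tissue with scattered values widens the error of every pair. All liver arrays lay on slide 1, all ileum arrays on slide 3 and all colon arrays on slide 4. Only liver with mesenteric fat, mesenteric with brown fat, and brown fat with ileum shared a slide. In every other tissue pair, tissue and slide cannot be told apart. Over the 10 tissue pairs, 77 of 100 comparisons of a member passed an adjusted p of 0.05 in limma, against 71.8% of all gene-by-pair tests. Differences between tissues were thus nearly as frequent among all genes as among the members.

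**Figure D1:**
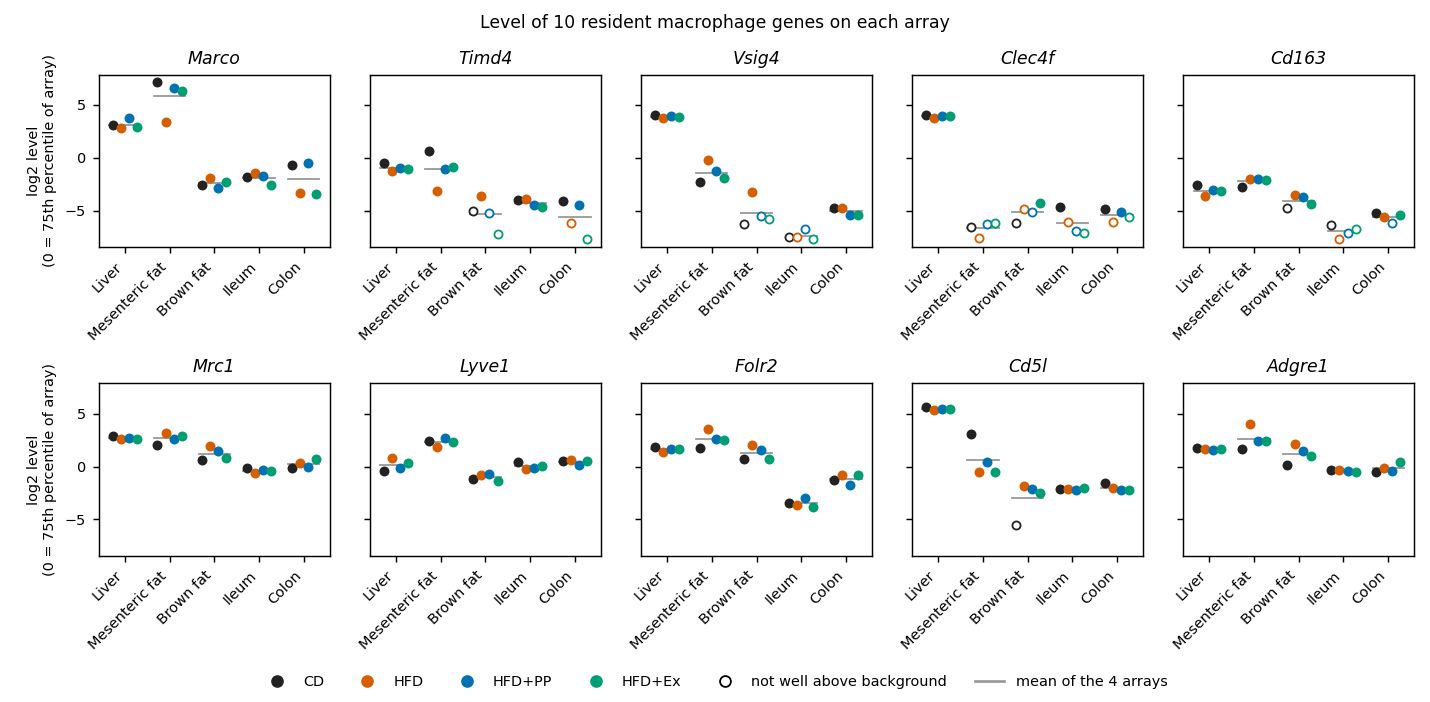
Level of each of the 10 genes on each of the 20 arrays, as log2 signal relative to the 75th percentile of the array, by tissue and coloured by diet; open circles are probes not well above background and grey bars the mean of the 4 arrays. Clec4f, Vsig4 and Cd5l stand highest in liver, and Marco and Lyve1 in mesenteric fat, where Marco reads 7.13 on CD and 3.40 on HFD.

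Of the members, Vsig4, Clec4f and Cd5l were highest in liver, and Marco and Lyve1 in mesenteric fat, each separated from its next tissue in the test. For Clec4f that tissue was brown fat and for Lyve1 colon, and neither pair shared a slide. Vsig4, the complement receptor CRIg that takes bacteria out of the blood, had liver levels of 3.73 on HFD, 3.89 on HFD+Ex and 3.97 on HFD+PP, with CD highest, and its mean of 3.90 ± 0.12 (SD, n = 4) was 39.8-fold above mesenteric fat (log2 5.31 ± 0.46, SE, adjusted p = 6.3e-08). In ileum it was not well above background on any array, and liver was at least 619-fold higher. Clec4f, a lectin used to identify Kupffer cells, had levels of 4.08, 3.78, 3.96 and 3.97 in liver on CD, HFD, HFD+PP and HFD+Ex. It was not well above background on any mesenteric fat array, where liver was at least 832-fold higher, and it passed background on only 1 array of brown fat, 1 of ileum and 2 of colon. Cd5l, a secreted protein that macrophages release into the blood, stood at 5.60, 5.38, 5.42 and 5.41 in liver, 28.7-fold above mesenteric fat (adjusted p = 5.1e-05). For each of the 3 genes, the 4 liver values lie within 0.30 log2 of each other.

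Marco, a scavenger receptor for bacteria and particles, was the member of mesenteric fat. Its mean there was 5.85 ± 1.67 (SD, n = 4) against 3.14 ± 0.41 in liver, a 6.54-fold difference (log2 2.71 lower in liver, SE 0.68, adjusted p = 0.0020), and liver was in turn 32.3-fold above ileum, 34.8-fold above colon and 47.4-fold above brown fat. Those 3 low tissues did not differ from each other beyond the fitted spread (adjusted p = 0.47 to 0.91). That spread is shared with mesenteric fat, and the SD of Marco was 1.63 in colon, 0.47 in ileum and 0.39 in brown fat. The summed level of B cell genes was 10.2 to 114 in mesenteric fat and at most 21.2 in the other tissues, and its part in the order of Marco was not tested. Lyve1 is a hyaluronan receptor carried by perivascular macrophages and also by lymphatic and liver sinusoidal endothelium. It was 3.61-fold higher in mesenteric fat than in colon (adjusted p = 2.0e-05) and 4.52-fold higher than in liver (adjusted p = 2.3e-06). Brown fat was its lowest tissue. Liver, ileum and colon did not differ beyond the fitted spread for Lyve1 (adjusted p = 0.21 to 0.74). With the authors' scaling colon was above liver (adjusted p = 0.010), and with the slide as a random block colon was above ileum (adjusted p = 0.043). The fitted correlation within a slide was negative there (−0.14). Ileum and colon lay on different slides, so that setting cannot separate slide from tissue. Lymphatic endothelium genes summed to 23.0 to 39.8 in mesenteric fat, 20.8 to 29.6 in ileum, 8.79 to 12.3 in colon, 4.98 to 9.15 in brown fat and 2.48 to 2.94 in liver, and their part in the levels of Lyve1 was not tested.

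Folr2, the folate receptor beta, Adgre1, the F4/80 antigen, and Cd163, the haemoglobin scavenger receptor, also had their highest means in mesenteric fat, but the lead over liver was small. It was 1.94-fold for Folr2 (adjusted p = 0.020), 1.93-fold for Adgre1 (0.024) and 1.86-fold for Cd163 (0.026), each higher in 3 of 4 pools. Each of these calls was lost when the HFD, the HFD+PP or the HFD+Ex pool was left out, with adjusted p between 0.051 and 0.17 then, and that of Cd163 also with normexp (0.34). Mrc1, the mannose receptor, had levels of 2.69 ± 0.12 in liver and 2.66 ± 0.50 in mesenteric fat (SD, n = 4), and Timd4, a receptor for phosphatidylserine on dying cells, had −0.97 ± 0.32 and −1.10 ± 1.54. These 2 genes did not differ between liver and mesenteric fat beyond the fitted spread (adjusted p = 0.94 and 0.87). With the authors' scaling, Mrc1 was higher in mesenteric fat (adjusted p = 0.040). Brown fat was the third tissue for Folr2, Adgre1, Mrc1 and Cd163, and it did not differ from liver beyond the spread for Folr2 (adjusted p = 0.35) and Adgre1 (0.28). Without the HFD pool Adgre1 was higher in liver than in brown fat (log2 0.76, adjusted p = 0.042). The gut was the lowest site of all 4 of these genes, and ileum held less Folr2 than colon (5.02-fold, adjusted p = 8.4e-05).

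The comparison of HFD with CD asked what the high fat diet itself changed. In mesenteric fat the members split. Of the 9 that were measured there, 4 rose (Adgre1, Vsig4, Folr2 and Mrc1), 3 fell (Timd4, Marco and Cd5l), and Cd163 and Lyve1 differed by less than 2-fold. Of all 16357 genes measured in this pair of arrays, 8.88% rose and 8.46% fell. Scaling to probes that were bright on all arrays turned those shares to 6.57% and 10.1%, with the same 4 and 3 counts among the members. The median of all genes was 0.12 and that of the members 0.73.

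The 3 members that fell did so by more than 10-fold. Marco stood at 7.13 on CD, 3.40 on HFD, 6.57 on HFD+PP and 6.30 on HFD+Ex, so the HFD array was 13.3-fold below CD. Timd4 stood at 0.63, −3.11, −1.03 and −0.89 in the same order and fell 13.4-fold. Cd5l stood at 3.06, −0.50, 0.42 and −0.54 and fell 11.8-fold. For Marco and Timd4 the HFD array was the lowest of the 4, whereas for Cd5l both HFD and HFD+Ex were low and the CD array alone was high.

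The 4 members that rose reached their highest level on the HFD array. Adgre1 went from 1.61 on CD to 3.98 on HFD, a 5.15-fold rise, with 2.41 on HFD+PP and 2.39 on HFD+Ex. Its other probe gave a log2 difference of 2.57 against 2.36 for the one used. Vsig4 stood at −2.32, −0.18, −1.28 and −1.89 and rose 4.41-fold. Folr2 stood at 1.71, 3.55, 2.61 and 2.48 and rose 3.57-fold. Mrc1 stood at 2.03, 3.21, 2.58 and 2.84 and rose 2.26-fold. For all 4 genes the CD array was the lowest and the 2 supplement arrays lay between CD and HFD. Cd163 stood at −2.73 on CD and between −2.07 and −1.99 on the 3 high fat arrays.

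**Figure D2:**
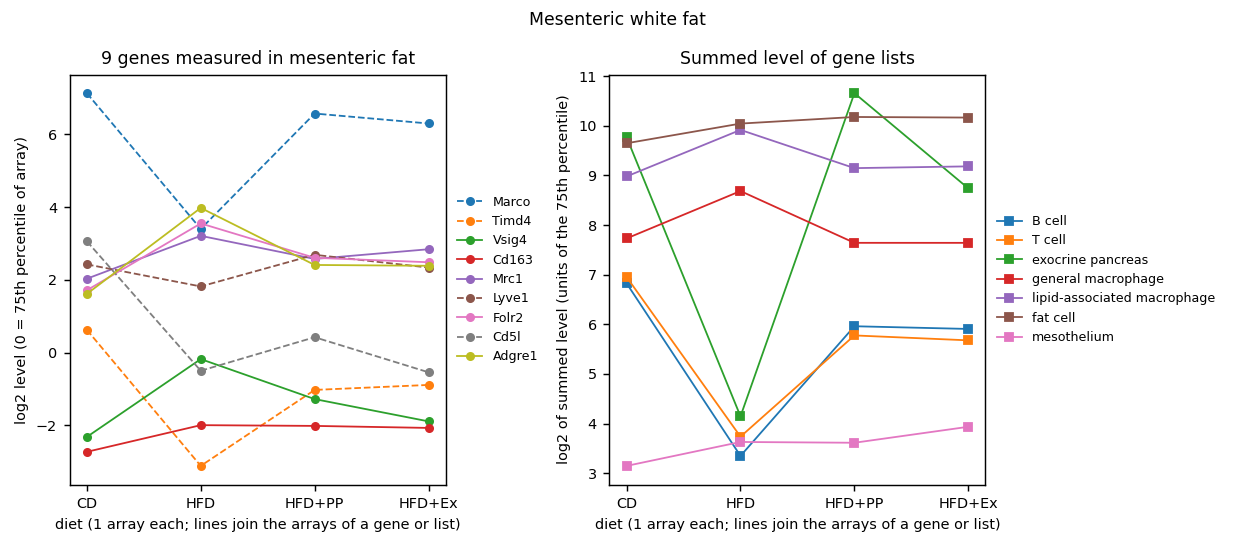
Mesenteric white fat. Left, log2 level of the 9 measured members on the 4 diets; dashed lines are genes lower on HFD than on CD. Right, log2 of the summed level of lists of cell type genes on the same arrays. Marco and Timd4 dip on HFD together with the B cell, T cell and exocrine pancreas lists, while Adgre1, Folr2, Vsig4 and Mrc1 peak on HFD together with the general and lipid-associated macrophage lists.

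Other macrophage genes of these arrays also went both ways. Of 16 general macrophage genes 9 rose and 1 fell (median 1.01), with Cd68 up by 2.53 log2 and the complement gene C1qb by 1.60. Of 13 lipid-associated genes 10 rose and 0 fell (median 2.36), led by the elastase Mmp12 at 5.85 and Gpnmb at 4.65. Of 28 other genes of resident macrophages 5 rose and 4 fell (median 0.67). Cd209b, a lectin of macrophages in the marginal zone of spleen and in lymph nodes, fell by 3.23 and Spic, a transcription factor of iron-recycling macrophages, fell by 2.88, while Slc11a1, a metal transporter of phagosomes, rose by 1.80. The growth factor Il34 rose by 1.25, and the receptor Csf1r, with a difference of 0.47, did not pass 2-fold.

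Markers of other cell types moved with the members that fell. On HFD against CD, all 10 B cell genes fell (median −3.45), all 10 T cell genes fell (median −3.40) and all 10 exocrine pancreas genes fell (median −5.89). The summed level of the B cell list was 114, 10.2, 62.3 and 60.0 times the 75th percentile on CD, HFD, HFD+PP and HFD+Ex. That of the T cell list was 124, 13.3, 54.8 and 51.2, and that of the pancreas list 874, 17.7, 1616 and 428. Of 10 genes of liver sinusoidal endothelium, several of which lymph node endothelium also carries, 5 fell and 1 rose, led by Dnase1l3 at −3.71 and Clec1b at −3.23. Intestinal epithelium genes ran the other way, with all 10 higher on HFD (median 2.78) and summed levels of 6.60, 42.8, 33.4 and 7.23. All T cell and pancreas genes were well above background on all 4 arrays, as were all B cell genes but 1 on the HFD array. The part of these lists in the differences of Marco, Timd4 and Cd5l was not tested. Summed hepatocyte genes were 113 on CD, 29.8 on HFD and 75.8 on HFD+Ex, and Clec4f was not well above background on any of the 4 arrays. Mesothelium genes showed 0 of 7 past 2-fold, and of 8 fat cell genes only Lep rose.

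In brown fat the same diet comparison went one way. Of 9 measured members 7 rose and 0 fell, against 6.27% higher and 3.08% lower of 14955 genes, and the median was 1.34 against −0.13 for all genes. With the authors' scaling the shares of all genes were 9.79% and 1.77%, and the members' counts were again 7 and 0. Adgre1 stood at 0.18 on CD, 2.16 on HFD, 1.45 on HFD+PP and 1.02 on HFD+Ex and rose 3.95-fold. Mrc1, at 0.59, 1.96, 1.46 and 0.80, rose 2.58-fold, and Folr2, at 0.71, 2.05, 1.60 and 0.71, rose 2.52-fold. These 3 genes were well above background on all 4 arrays, with HFD highest and CD lowest or level with HFD+Ex.

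The other 4 that rose in brown fat were not well above background on the CD array. Cd5l rose at least 7.03-fold, Vsig4 at least 2.75-fold, Cd163 at least 2.20-fold and Timd4 at least 2.07-fold. Those 4 calls were lost with the normexp background correction, which left 3, and the difference of Timd4 was −0.08 then. Quantile scaling also took Timd4 (0.85) and Cd163 (0.94) below 2-fold. Vsig4 and Timd4 were well above background in brown fat on the HFD array alone, at −3.23 and −3.64. Marco, at −2.60, −1.93, −2.85 and −2.33, and Lyve1 did not reach 2-fold.

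General and lipid-associated macrophage genes were also higher in brown fat on HFD. Of 16 general macrophage genes 15 rose and 0 fell (median 1.80), of 13 lipid-associated genes 8 rose and 0 fell, and of 28 other resident genes 8 rose and 0 fell, among them Siglec1 at 1.58 and Stab1 at 1.31. Of the B cell list 7 of 10 genes could be compared and 1 was higher, and of the T cell list 6 of 10 could be compared and 1 was higher. Of 8 hepatocyte genes 5 rose and 1 fell, with Alb at 3.48. Clec4f, the Kupffer cell lectin, was not well above background on either array of this pair.

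In liver 1 member rose and 1 fell on HFD, against 3.45% higher and 1.35% lower of all 15378 genes. Lyve1 stood at −0.41 on CD, 0.77 on HFD, −0.16 on HFD+PP and 0.36 on HFD+Ex, and rose 2.26-fold. Cd163 stood at −2.57, −3.62, −3.06 and −3.14 and fell 2.06-fold. That call of Cd163 was lost under 4 alternatives, the 3 other scalings and the normexp correction, with log2 differences between −0.98 and −0.40. The 8 others differed by 0.09 to 0.76 log2, all of them downward, and Clec4f, Vsig4 and Cd5l by 0.29, 0.28 and 0.22. The median of the members was −0.29, against −0.05 for all genes.

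Beside Lyve1, 3 of 26 other resident macrophage genes rose in liver and 0 fell. F13a1, a clotting factor subunit made by macrophages, stood at −4.69, −2.24, −3.52 and −4.43 on CD, HFD, HFD+PP and HFD+Ex and rose by 2.44. The chemokine Pf4, which platelets also carry, stood at −0.47, 1.08, −0.10 and −0.29 and rose by 1.55. Cbr2, a carbonyl reductase, stood at −4.42, −3.01, −3.99 and −4.59 and rose by 1.41. All 4 of these genes had their highest liver level on the HFD array. Genes of liver sinusoidal endothelium showed 0 of 10 past 2-fold and general macrophage genes 0 of 15. Lymphatic endothelium genes showed 2 of 7 higher, and mesothelium genes 5 of 6 higher, with Msln at 1.77. Lipid-associated genes rose in 9 of 13 and fell in 1 (median 1.53), and monocyte genes rose in 4 of 7. Fat cell genes rose in 5 of 6, with summed levels of 7.60, 54.5, 26.9 and 27.5 on CD, HFD, HFD+PP and HFD+Ex. The part of these lists in the rise of Lyve1 was not tested.

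In colon 0 members rose and 3 fell on HFD, against 0.450% higher and 1.70% lower of 17098 genes. Marco stood at −0.64 on CD, −3.33 on HFD, −0.50 on HFD+PP and −3.44 on HFD+Ex, and fell 6.45-fold. Marco was thus high on the CD and HFD+PP arrays and low on the HFD and HFD+Ex arrays, each of them a single array. Timd4 followed the same order, well above background on CD (−4.12) and HFD+PP (−4.46) and not on HFD or HFD+Ex, and fell at least 3.88-fold. Clec4f was well above background on the same 2 arrays, at −4.82 and −5.13, and fell at least 2.36-fold. The calls of Timd4 and Clec4f were lost with the normexp correction, while Marco fell under every scaling and correction tried. The other 7 members differed by at most 0.54 log2. No general macrophage gene of 16, no B cell gene of 10 and no T cell gene of 10 passed 2-fold in this comparison. Hepatocyte genes did: 6 of 8 fell (median −2.85), with summed levels of 52.1, 16.8, 14.2 and 17.7 on CD, HFD, HFD+PP and HFD+Ex. The part of the hepatocyte list in the differences of Marco and Timd4 was not tested.

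In ileum no member of the 8 measured passed 2-fold on HFD, against 1.57% higher and 2.33% lower of all genes. Those shares were 2.11% and 1.65% with quantile scaling and 1.24% and 2.94% with the authors' values. Marco stood at −1.79, −1.44, −1.72 and −2.54, Mrc1 between −0.60 and −0.19, Adgre1 between −0.52 and −0.29 and Cd5l between −2.27 and −2.02. Vsig4 and Cd163 were not well above background on any ileum array.

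**Figure D3:**
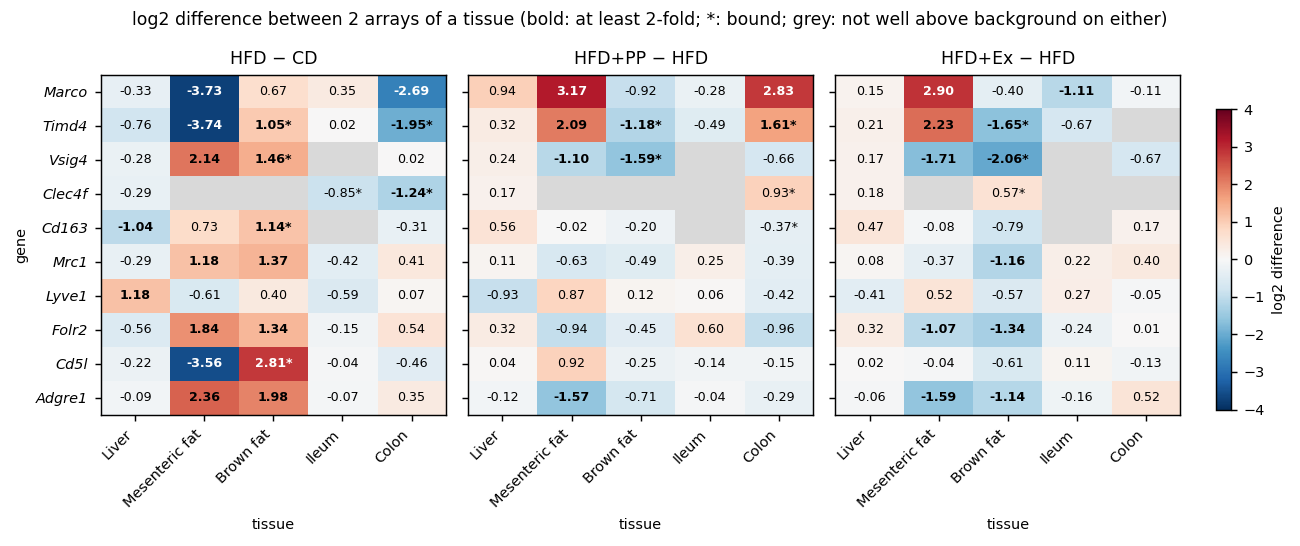
log2 difference of each of the 10 genes in each tissue for HFD minus CD, HFD+PP minus HFD and HFD+Ex minus HFD; red is higher and blue lower in the first-named diet, bold values are at least 2-fold, asterisks mark bounds, and grey cells were not well above background on either array. Marco and Timd4 are blue in mesenteric fat on HFD and red on both supplements, Adgre1 runs the opposite way, and in colon Marco returns on HFD+PP (2.83) and not on HFD+Ex (−0.11).

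The next comparisons asked what porphyran or the nori extract changed on the high fat diet. They share the HFD array with the comparison above, and the values of each are given side by side. In mesenteric fat, 2 members rose and 2 fell on HFD+PP against HFD, beside 4.69% higher and 4.22% lower of all genes, and 2 rose and 3 fell on HFD+Ex against HFD, beside 3.64% and 3.78%. Marco rose 9.01-fold with porphyran and 7.46-fold with the extract, and Timd4 4.25-fold and 4.68-fold. Adgre1 fell 2.97-fold and 3.01-fold and Vsig4 2.14-fold and 3.28-fold. Folr2 fell 2.09-fold with the extract and had a log2 difference of −0.94 with porphyran. The call of Vsig4 with porphyran was lost with normexp (−0.98) and, narrowly, with bright-probe scaling, and that of Folr2 was lost narrowly with bright-probe scaling and the authors' values. Cd5l had a log2 difference of 0.92 with porphyran and −0.04 with the extract, so its lower level on the high fat diet was there with both supplements.

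The lists named above moved as well in these pairs. With porphyran 9 of 10 B cell genes (median 2.61), 9 of 10 T cell genes (median 2.09) and all 10 exocrine pancreas genes (median 6.69) rose, and with the extract 9, 9 and 10 did (medians 2.57, 2.11 and 4.89). General macrophage genes fell in 8 of 16 with porphyran and 7 of 16 with the extract, and lipid-associated genes in 9 and 8 of 13. Cd209b rose by 2.36 and 1.96, and Spic by 2.04 and 1.98. Without the HFD array, HFD+PP against CD showed 1 member of 9 higher and 2 lower, beside 3.31% and 2.81% of all genes. Marco had a log2 difference of −0.56 in that pair, Timd4 fell 3.14-fold, Cd5l fell 6.23-fold and Vsig4 rose 2.06-fold. HFD+Ex against CD showed 0 higher and 2 lower, beside 2.47% and 4.13%, with Timd4 2.86-fold and Cd5l 12.2-fold lower and Marco at −0.83. On both supplements, then, Timd4 and Cd5l were at least 2-fold below the control diet and Marco was not, in comparisons that cross slides. The rise of Vsig4 was lost with normexp (0.68) and with bright-probe scaling (0.99).

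In brown fat, 0 members rose and 2 fell on HFD+PP against HFD, beside 1.51% higher and 2.18% lower of all genes. They were Vsig4, at least 3.01-fold, and Timd4, at least 2.27-fold, and neither was well above background on the HFD+PP array. On HFD+Ex, 0 rose and 5 of 10 fell, beside 0.846% and 3.31%. Folr2 fell 2.53-fold, Mrc1 2.23-fold and Adgre1 2.20-fold, with Vsig4 at least 4.18-fold and Timd4 at least 3.14-fold lower. The calls of Vsig4, Timd4 and Adgre1 were lost with the normexp correction, Adgre1 narrowly at −0.99. Cd5l kept most of its level, with log2 differences of −0.25 with porphyran and −0.61 with the extract. Of the 16 general macrophage genes 0 fell with porphyran and 11 with the extract, and of 8 hepatocyte genes 5 fell with each. Against CD, Cd5l was at least 5.93-fold higher with porphyran and at least 4.61-fold higher with the extract. Adgre1 was 2.41-fold higher with porphyran, making 2 of 7 higher and 0 lower (3.99% and 3.07% of all genes), and with the extract 1 of 8 was higher and 0 lower (2.72% and 2.40%). With the authors' values the members higher were 5 and 2, beside 6.38% higher and 2.05% lower of all genes with porphyran and 4.36% and 1.92% with the extract. With quantile scaling the shares with the extract were 1.95% and 3.01%. Both calls of Cd5l were lost with normexp (0.65 and 0.52).

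In liver no member passed 2-fold on either supplement against HFD, beside 0.579% higher and 1.54% lower of all genes with porphyran (0.436% and 2.10% with quantile scaling) and 1.43% and 1.63% with the extract. Lyve1 had log2 differences of −0.93 and −0.41, F13a1 fell by 1.28 and 2.19 and Pf4 by 1.18 and 1.37. Marco reached its highest liver level on HFD+PP, 3.73, with a difference of 0.94 from HFD. Clec4f, Vsig4 and Cd5l differed by 0.02 to 0.24 log2. Against CD, no member passed 2-fold with porphyran (1.16% higher and 1.14% lower of all genes) or with the extract (2.16% and 1.24%).

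In colon 2 members rose and 0 fell on HFD+PP against HFD, beside 1.71% higher and 1.11% lower. Marco rose 7.13-fold and Timd4 at least 3.06-fold. On HFD+Ex 0 of 8 measured members passed 2-fold, beside 1.12% and 0.402%, and Marco had a log2 difference of −0.11. Of the 16 general macrophage genes 0 passed 2-fold with either supplement. Against CD, 0 of 10 passed 2-fold with porphyran (1.28% and 1.76% of all genes), with Marco at 0.14. With the extract 0 rose and 2 fell (1.07% and 1.52%), Marco 6.96-fold and Timd4 at least 3.08-fold, the latter lost with normexp (−0.44). In ileum 0 of 7 passed 2-fold with porphyran, beside 1.97% and 0.939%, and 1 of 7, Marco, fell 2.15-fold with the extract, beside 1.16% higher and 0.695% lower. With the normexp correction that difference was −0.80. Against CD no ileum member of the 8 measured passed 2-fold with porphyran (1.35% and 1.03%, or 1.69% and 0.771% with quantile scaling) or with the extract (1.85% and 2.25%).

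Setting the extract against porphyran directly, colon was the only tissue where a member passed 2-fold. Marco was 7.70-fold lower on HFD+Ex than on HFD+PP and Timd4 at least 2.43-fold lower, so 0 rose and 2 fell of 10, beside 1.74% higher and 1.39% lower of all genes. The 4 colon arrays lay on 1 slide. No member passed 2-fold in liver (1.35% higher and 0.509% lower of all genes), mesenteric fat (0.885% and 2.48%), brown fat (1.24% and 1.53%, or 0.785% and 2.35% with quantile scaling) or ileum (1.31% and 2.00%). In mesenteric fat Marco had a log2 difference of −0.27 and Timd4 one of 0.14, and the widest was Cd5l at −0.96.

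The members were also compared by how they varied once the mean of each tissue was taken off, over the 20 arrays. The arrays share pools of mice and slides, so the correlations describe these arrays only and carry no p-value. Mrc1, Folr2 and Adgre1 varied together (r = 0.87 to 0.90). Vsig4 correlated with them at r = 0.71 to 0.81 and Cd163 at r = 0.54 to 0.72. Marco varied with Timd4 (r = 0.79, and 0.71 over the 16 arrays without mesenteric fat). Timd4 was not well above background on 5 of the 20 arrays, all in brown fat or colon, and those values enter both correlations. Marco and Adgre1 ran opposite at r = −0.60, which was −0.22 without mesenteric fat and so rested on that tissue. Lyve1 had no other member above r = 0.27. Cd5l had none above 0.38 over all arrays, but without mesenteric fat it varied with Adgre1 (r = 0.75, against −0.01 over the 20 arrays). That value includes brown fat on CD, where Cd5l read −5.49 and was not well above background, against −2.49 to −1.88 on the other brown fat arrays.

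Over 15813 genes well above background on at least 10 arrays, the 3 nearest to Adgre1 were C1qb (r = 0.98), Slc11a1 (0.98) and the Fc receptor gene Fcgr3 (0.97). Those nearest to Mrc1 were the scavenger receptor Stab1 (0.96), C1qa (0.94) and the endocytic adaptor Dab2 (0.93). Folr2 was nearest to the complement inhibitor Serping1 (0.90), the aminopeptidase Anpep (0.89) and Mrc1 (0.89). Marco was nearest to the interferon-induced GTPase Gbp2b (0.88), the hepcidin gene Hamp (0.85) and Serpina10 (0.85), and Timd4 to Hamp (0.90), Slc17a9 (0.83) and Plac8 (0.79). Cd5l was nearest to Vipr1 (0.93), Cacnb3 (0.92) and Fgd3 (0.90), and Lyve1 to the chemokine scavenger Ackr2 (0.82), Sparc (0.81) and Ptpn13 (0.81). For Vsig4 they were Sdc1 (0.89), Slc24a2 (0.88) and Dcstamp (0.86), for Cd163 Ehd3 (0.86), Nlgn2 (0.85) and Sncaip (0.85), and for Clec4f Pon1 (0.82), Pax2 (0.80) and Icam2 (0.80). Vsig4, Cd163, Clec4f and Timd4 were well above background on only 13, 14, 8 and 15 of the 20 arrays, so their likeness rests in part on values at background.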

How the data were processed

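Each array measured 1 pooled tissue of 1 group of 7 mice, per the series' design text. The scans were read, per the file headers, with Agilent Feature Extraction 11.5.1.1 (protocol GE1_1105_Oct12). The deposited processed signal is a linear intensity per spot, background-subtracted within the array. Each column of the authors' deposited series matrix is that intensity times 1 factor per array (log2 factors 0.916 to 1.65, column medians 53.5 to 103.6), linear and not centred, with the target of the scaling unknown.

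Control spots (3671 of 62976) and outlier-flagged spots (117 to 206 per array) were left out and spots of a probe averaged. Of 55681 probes, 28026 matched a symbol through RefSeq accessions (assembly GRCm38.p6). The log2 intensity minus the 75th percentile of the array was used, with the brightest probe per gene. Tissues were compared with limma 3.58.1 (R 4.3.3) over 17389 genes well above background on at least 4 arrays, with Benjamini-Hochberg adjustment in each of 10 contrasts and the diet pool as a block, since the mice of a group gave all 5 tissues. The script was tested on simulated data. The alternatives were normexp (offset 50, on median signals because the files hold no mean signal), quantile scaling, scaling to bright probes, the authors' values, the mean of all probes, other filters, no block, the slide as a random block and each pool left out.

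Members and gene lists were chosen with earlier results of these data known. All 10 members are named whatever their values, with the 3 genes most like each. Of each list, up to 4 genes with the largest differences measured on both arrays are named. List genes named for their function (Csf1r, Siglec1, Stab1, Alb, Msln, Lep) were chosen after their values were seen where they fall outside this rule.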

Additional observations from a re-analysis of the deposited data

Results flagged for a closer look

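Several members moved at least 2-fold one way in 1 tissue and the other way in another under the same diet comparison. With 1 array per group the difference between tissues was not tested. Timd4 on HFD against CD had a log2 difference of −3.74 in mesenteric fat and −1.95 in colon against 1.05 in brown fat. Cd5l had −3.56 in mesenteric fat against 2.81 in brown fat, and Cd163 had −1.04 in liver against 1.14 in brown fat. On HFD+PP against HFD, Timd4 had 2.09 in mesenteric fat and 1.61 in colon against −1.18 in brown fat. On HFD+Ex against HFD, Timd4 had 2.23 in mesenteric fat against −1.65 in brown fat, and Marco had 2.90 in mesenteric fat against −1.11 in ileum. All the brown fat values here, and those of Timd4 in colon, are bounds, because the probe was well above background on only 1 of the 2 arrays. The brown fat value of Timd4 on HFD against CD was −0.08 with the normexp correction, and the other brown fat values, Cd163 in liver, Marco in ileum and Timd4 in colon fell below 2-fold with it. The values of Marco, Timd4 and Cd5l in mesenteric fat stayed at least 2-fold under every scaling and correction tried.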

How the results depend on the processing

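Of 40 differences of at least 2-fold in the comparisons of HFD with CD, of each supplement with HFD and of the supplements with each other, the number still past 2-fold in the same direction was 24 with normexp, 37 with quantile scaling, 37 with bright-probe scaling, 38 with the authors' values and 40 with the mean of all probes. Normexp gave Timd4 in brown fat, HFD against CD, a value of −0.0827 in place of 1.05. With normexp, members past 2-fold on HFD against CD numbered 1 in liver (1.16% higher and 0.345% lower of all genes). Brown fat had 3 in that comparison (2.03% and 1.05%), 0 with porphyran (0.225% and 0.496%) and 2 with the extract (0.106% and 0.802%). The ileum count with the extract was 0 (0.221% and 0.264%). In colon it was 1 on HFD against CD (0.0877% and 0.602%) and 1 with porphyran (0.542% and 0.283%). With the extract against porphyran it was also 1 in colon (0.326% and 0.504%). With probes well above background on both arrays the counts in brown fat were 3 of 5, 0 of 7 and 3 of 7 measured. The shares of all genes there, higher and lower, were 4.21% and 2.13%, 0.671% and 0.975%, and 0.345% and 2.5%. In the same colon comparisons the counts were 1 of 8, 1 of 7 and 1 of 7. The shares in colon were 0.25% and 1.07%, 1.3% and 0.886%, and 1.07% and 1.06%. With no filter all 10 members were compared. Brown fat with the extract against porphyran then had 1 at least 2-fold lower (7.91% higher and 2.28% lower of all genes). In ileum 2 were lower on HFD (2.28% and 6.14%) and 2 with the extract (3.31% and 2.26%). In colon 1 was lower with the extract against HFD (2.54% and 2.20%). In liver on HFD against CD the count was 1 with quantile scaling, bright-probe scaling and the authors' values. The shares of all genes there, higher and lower, were 4.23% and 0.975%, 3.94% and 1.11%, and 4.15% and 1.05%. The authors' values also gave 1 in liver with porphyran (0.475% and 1.89%). Quantile scaling gave 1 in mesenteric fat with the extract against porphyran (0.969% and 2.39%). Single genes that passed 2-fold only under a setting include Lyve1 in mesenteric fat with porphyran (1.03) and Cd163 in brown fat with the extract (−1.06), both with quantile scaling, and Cd5l in mesenteric fat with porphyran (1.02) with bright-probe scaling. Members with their highest mean in liver numbered 5, and 3 with bright-probe scaling and the authors' values. The cause of these changes was not tested. For the supplements against CD these alternatives were added after seeing the data. Of 10 such differences 6 stayed past 2-fold with normexp, 9 with bright-probe scaling and 10 with quantile scaling, the authors' values and the mean of all probes. Members past 2-fold in brown fat with porphyran numbered 2, and 1 with normexp, 5 with bright-probe scaling and the authors' values, 1 with both arrays above background and 4 with no filter. With the extract they numbered 1 in brown fat, and 0 with normexp, 2 with the authors' values, 0 with both arrays above background and 3 with no filter. In colon with the extract 2 became 1 with normexp and with both arrays above background. In ileum 0 became 1 with each supplement with no filter. With both arrays above background, 5 members were measured in brown fat with each supplement and 8 in colon with the extract. The shares of all genes were then 2.39% and 1.98%, 1.44% and 1.76%, and 0.435% and 0.895%, in that order.

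Of 100 tissue comparisons 77 passed, between 75 and 80 under the other settings and between 71 and 77 when a pool was left out. Without the pool as a replicate block 77 passed. No paired analysis was possible because each diet comparison within a tissue has 1 array per group. Signal near background limits Timd4 and Vsig4 outside liver and mesenteric fat, Cd163 outside mesenteric fat and Clec4f outside liver. A single pool per group gives no estimate of the spread between mice.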
